A study of Mus musculus with 14 samples.

Results

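Keratinocytes make signals that start and steer inflammation in skin, and 10 genes of that kind were followed here in mice whose p63 had lost its alpha ending. The genes were chosen by name, with earlier results of these data known. They were the interleukin-1 family members Il1a, Il1b, Il1rn, Il18 and Il33, the cytokines Tslp and Il24, the chemokines Cxcl1 and Ccl20, and Ptgs2, which encodes the inducible cyclooxygenase. All 10 were found among the 27179 genes of the keratinocyte table and among the 24411 genes of the epidermis table. After a filter on low counts, 10 of the 10 were tested in keratinocytes and 8 in epidermis, where Tslp and Il24 had too few counts.

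The series compared RNA of newborn mice with the genotype KRT14-Cre; Trp63-Ex13fl/fl, called p63beta, with RNA of newborn Trp63-Ex13fl/fl mice without the Cre, called p63alpha. Both genotypes carry the floxed exon 13 of Trp63, and the KRT14-driven Cre recombinase acts in cells that express keratin 14, so that other cells of the tissue keep the exon. Cultured primary keratinocytes, grown in medium with low calcium, gave 3 p63beta and 3 p63alpha libraries, and epidermis split from the dermis by overnight trypsin gave 4 p63beta and 4 p63alpha libraries. The labels do not say that each library came from a separate animal or culture, so the spread behind the p-values is that between libraries and may be technical.

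Interleukin-1 alpha and beta signal through the same receptor, interleukin-1 receptor antagonist blocks that receptor, and interleukins 18 and 33 use related receptors of their own. Epidermal keratinocytes hold stores of interleukin-1 alpha, interleukin-18 and interleukin-33 that are released on injury, and stressed keratinocytes secrete TSLP, chemokines and prostaglandins. Cyclooxygenase 2 turns arachidonic acid into prostaglandin H2, the precursor of prostaglandin E2 and the other prostanoids, and in many cell types its gene is switched on by cytokines, growth factors and stress.

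The sequences before 4 of the start sites are shown because these are the genes whose fold changes the comparisons below turn on, or, for Il1a, the most abundant cytokine transcript of the 10 genes per length in the cultures. They come from the RefSeq promoter table on build GRCm38.p6, which held windows for 8 of the 10 genes, Tslp and Il24 being the other two. Capitals mark matches to any of 5 motifs searched on both strands: the NF-kB consensus, AP-1 (TGANTCA), the cyclic AMP response element CRE (TGACGTCA), the TATA box (TATAAA) and the single repeat of the response element of the p53 family, to which p63 belongs.
Ptgs2 chr1:150099781-150100080, plus strand: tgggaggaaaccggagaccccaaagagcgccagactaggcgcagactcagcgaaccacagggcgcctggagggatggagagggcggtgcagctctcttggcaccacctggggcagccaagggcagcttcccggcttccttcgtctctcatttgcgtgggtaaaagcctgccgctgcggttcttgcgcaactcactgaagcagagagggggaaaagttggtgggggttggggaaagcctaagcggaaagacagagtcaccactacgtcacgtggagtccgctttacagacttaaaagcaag
Cxcl1 chr5:90890995-90891244, plus strand: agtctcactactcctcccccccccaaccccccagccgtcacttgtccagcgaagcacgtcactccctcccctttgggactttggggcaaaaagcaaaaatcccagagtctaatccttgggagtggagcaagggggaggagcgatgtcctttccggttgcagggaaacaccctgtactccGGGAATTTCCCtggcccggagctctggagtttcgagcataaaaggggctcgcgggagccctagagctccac
Ccl20 chr1:83116516-83116765, plus strand: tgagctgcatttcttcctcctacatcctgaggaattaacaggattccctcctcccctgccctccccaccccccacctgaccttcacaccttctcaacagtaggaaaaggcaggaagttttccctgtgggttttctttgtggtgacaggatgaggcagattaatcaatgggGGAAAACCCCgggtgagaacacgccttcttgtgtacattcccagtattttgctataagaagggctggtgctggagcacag
Il1a chr2:129309973-129310222, minus strand: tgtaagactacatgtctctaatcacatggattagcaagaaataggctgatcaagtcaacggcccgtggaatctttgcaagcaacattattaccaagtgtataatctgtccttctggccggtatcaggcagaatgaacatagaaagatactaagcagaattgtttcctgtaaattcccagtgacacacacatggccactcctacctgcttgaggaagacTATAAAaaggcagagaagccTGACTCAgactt

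Within the 250 bases before the start, Cxcl1 held the NF-kB consensus on both strands in overlapping positions, from base -71 and from base -70, and Ccl20 held it on the reverse strand from base -80. Of 32851 windows of the same length in the table, 7.25% held that consensus. Il1a had an AP-1 match from base -12 and a TATA box from base -32. AP-1 was in 6.75% of all windows and the TATA box in 12.37%. Il1b had a TATA box from base -31, the Il1rn window that lies furthest upstream an AP-1 match from base -141, Il18 a TATA box on the reverse strand from base -175, and the Il33 windows a TATA box from base -203 and from base -29. No window of these genes matched the whole CRE, held by 1.55% of all windows, or the whole p53 family repeat, held by 7.13%.

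The Ptgs2 window is shown with the 50 bases after the RefSeq start, because the Ptgs2 gene of the keratinocyte count table starts 93 bases further on, at chr1:150100124. None of the 5 motifs had an exact match over its whole length within these 300 bases. Partial matches were not searched, and the end of the CRE, CGTCA, stands in the 50 bases after the RefSeq start. Over windows of that length, the share with a match was 8.46% for the NF-kB consensus, 7.81% for AP-1, 1.79% for the CRE, 13.62% for the TATA box and 8.36% for the p53 family repeat. The 43 bases between the window and the start in the count table were not searched, and which start these cells use was not tested. The RefSeq start of Il18 lies 10668 bases before that of the counted Il18 gene, so its TATA box match is not near the counted start. For Il1a, Il1b, Il1rn, Il33, Cxcl1 and Ccl20, a RefSeq start lies at most 19 bases from the counted one. These matches describe letters in the windows and say nothing about which proteins bind there.

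**Figure D1:**
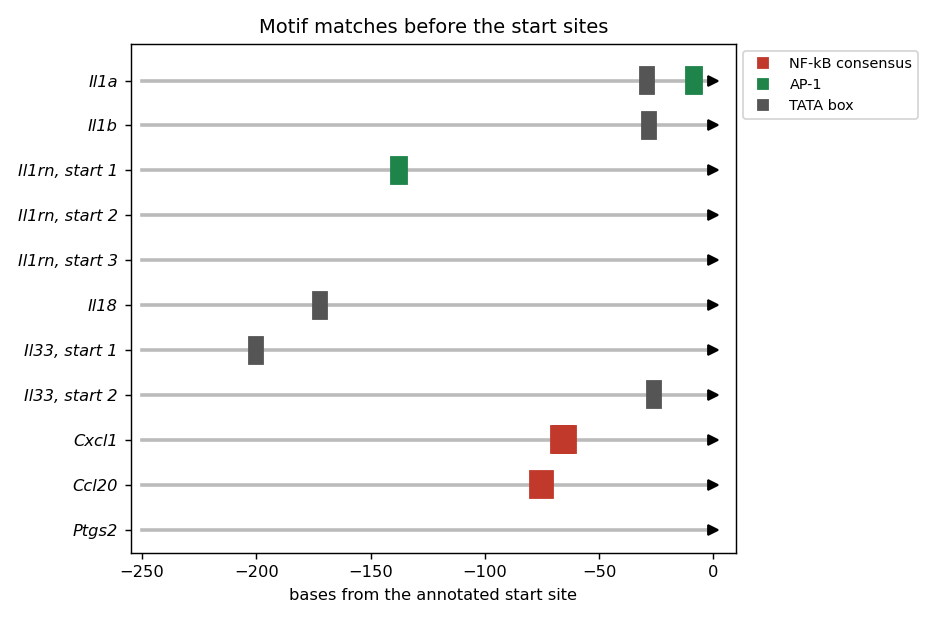
Positions of motif matches in the 250 bases before each annotated start site of 8 of the genes, in bases from the start (x axis), with 1 line per start site and boxes for the NF-kB consensus, AP-1 and the TATA box. Cxcl1 and Ccl20 carry the NF-kB boxes, and the Ptgs2 line carries none.

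The intended change in Trp63 could be read from the epidermis transcripts. Transcripts with the alpha ending carried 4.81% ± 4.58 of the Trp63 TPM (a level per transcript length, scaled to the library total) in p63beta and 82.7% ± 2.20 in p63alpha (SD, n = 4 each; p 0.0286 by exact permutation, the smallest that 4 against 4 libraries allow, and 0.0429 after adjustment). The keratinocyte counts are per gene and do not test this. Totals were 20688027 to 30066041 counted read pairs per keratinocyte library and 21290068 to 44909629 estimated counts per epidermis library. Keratinocyte markers were present in every library, with summed levels of 25260 to 34270 CPM (counts scaled to the library total) in p63beta and 26230 to 38060 CPM in p63alpha cultures, and of 122400 to 166600 CPM in p63beta and 100700 to 176800 CPM in p63alpha epidermis. The sums hold 10 markers in cultures and 9 in epidermis. The edgeR test below called 1 of the 10 and 0 of the 9, against 0.101% and 0.232% of all genes tested. Among the cultures, p63beta replicate 3 stood apart in heart muscle genes, whose 8 markers summed to 3307 CPM there and to 70.3 to 169.9 CPM in the other 5. In epidermis, the column headers give the libraries KO2 (p63beta) and WT3 (p63alpha) another code than the 6 libraries with EP numbers, so results that rest on that pair are also given without it.

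In newborn epidermis, Ptgs2 rose 17.8-fold in p63beta, and it was the one gene among the 8 tested that passed. Il1a, Il1rn and Il18, the cytokine genes with the highest levels among the 10 in this tissue, had fold changes within 1 SE of 0. Cxcl1, Il33 and Il1b had higher means in p63beta but overlapping libraries and did not pass. Calls were made with edgeR's quasi-likelihood test where the p-value, adjusted over all genes tested by Benjamini-Hochberg, was under 0.05, and that test called 32 of 13796 genes, or 0.232%. An unadjusted p under 0.05 was found for 4.64% of all genes tested in epidermis, and DESeq2 called 141 genes, or 1.03%. All p63beta libraries lay above all p63alpha libraries for 1.88% of the genes tested and below them for 1.19%.

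**Figure D2:**
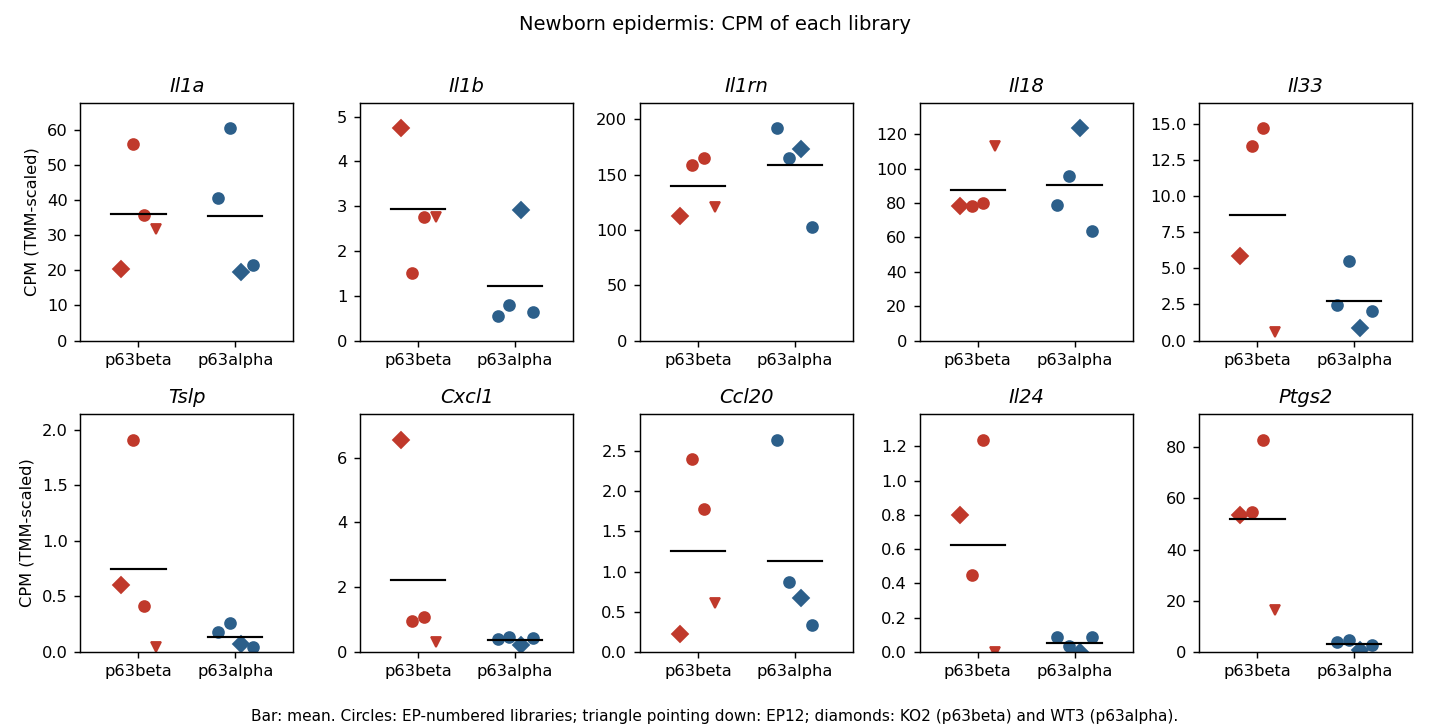
CPM in newborn epidermis (y axis, TMM-scaled, starting at 0, a scale per panel) of each of the 10 genes, p63beta libraries in red and p63alpha libraries in blue, with the mean as a bar. Ptgs2 is the gene whose groups do not overlap, and its lowest p63beta library is EP12 at 16.4 CPM.

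Ptgs2 (Entrez 19225, chr1:150100124-150108017, plus strand) measured 53.5, 54.7, 83.0 and 16.4 CPM in KO2, EP10, EP11 and EP12 (p63beta), against 3.79, 4.50, 2.66 and 0.668 CPM in EP07, EP08, EP09 and WT3 (p63alpha). These values rest on 2144, 1344, 2612 and 380 estimated counts in p63beta and on 129, 140, 63 and 20 in p63alpha. The groups did not overlap, with EP12 the lowest of p63beta and WT3 the lowest of p63alpha. The means were 51.9 ± 27.3 CPM in p63beta and 2.91 ± 1.67 CPM in p63alpha (SD, n = 4 each), which is 4.15 ± 0.62 as a log2 fold change with its SE (edgeR adjusted p 0.0301). In a bulk sample, more RNA per cell and more cells that express the gene cannot be told apart.

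The direction of the Ptgs2 difference was the same within each column code, but the EP-numbered libraries alone did not give a call. Among the EP-numbered libraries, 3 per genotype, Ptgs2 averaged 51.4 CPM in p63beta and 3.65 CPM in p63alpha, and KO2 had 53.5 CPM against 0.668 CPM in WT3. The mean log2 CPM differed by 3.54 among the EP-numbered libraries and by 6.19 between KO2 and WT3, a pair with no replicate. A fit of the EP-numbered libraries alone gave a log2 fold change of 3.81 with an edgeR adjusted p of 0.114. The adjusted p was also above 0.05 when any of EP07, EP08, EP09, KO2, EP10 or EP11 was left out, reaching 0.128 without EP07, while the log2 fold change stayed between 3.83 and 4.45. With a DESeq2 test of the same counts the adjusted p was 1.86e-12.

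Of the markers of other cells, the melanocyte sum was higher and the fibroblast sum lower in p63beta epidermis, and the other sums overlapped. The 5 melanocyte markers summed to 294 to 431 CPM in p63beta and 106 to 234 CPM in p63alpha, and the 7 fibroblast markers to 283 to 437 CPM in p63beta and 449.5 to 502 CPM in p63alpha, with no overlap in either case. No gene of either list was called, none was at 0 in all libraries, and their part in the Ptgs2 result was not tested. Of single genes tested in epidermis, 1.88% had all p63beta libraries higher and 1.19% all lower. The 12 myeloid and Langerhans cell markers overlapped, at 73.3 to 199 CPM in p63beta and 107 to 165 CPM in p63alpha, and so did the neutrophil markers, which summed to 0.529 to 1.94 CPM in p63beta and 0.836 to 1.44 CPM in p63alpha, Camp being at 0 throughout. The T cell, mast cell, endothelium and heart muscle sums overlapped as well.

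The genes whose log2 CPM followed Ptgs2 most closely over the 8 epidermis libraries, out of 12551 genes compared, were Ntng1 (Pearson r 0.981), Sncg (0.979), Eif4e3 (0.971), Itpripl1 (0.969) and Runx2 (0.963). All libraries share the split by genotype, and the genes were picked by this correlation over the same libraries. The correlations and any shared order of libraries are therefore a description. Sncg, which encodes gamma-synuclein, measured 18.3, 44.3, 31.7 and 11.5 CPM in KO2, EP10, EP11 and EP12, against 0.823, 0.933, 0.295 and 0.1002 CPM in EP07, EP08, EP09 and WT3. Like Ptgs2, it was lowest in EP12 among p63beta libraries and in WT3 among p63alpha libraries. Of the 5 genes, edgeR called Sncg (log2 fold change 5.58 ± 0.66, adjusted p 0.00835) and Eif4e3, a cap-binding protein gene (2.12 ± 0.30, adjusted p 0.0196). The Eif4e3 call was lost when any of EP07, KO2, EP09, EP10 or EP11 was left out, with edgeR adjusted p from 0.0551 to 0.103. In the EP-numbered libraries alone its edgeR adjusted p was 0.0954. Runx2, a transcription factor gene known from bone, had a log2 fold change of 1.78 ± 0.36 (adjusted p 0.130).

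Ptgs2os, a noncoding gene on the opposite strand whose own start lies 357 bases before that of Ptgs2 in the count table, was chosen after its values were seen. Its epidermis counts were 21, 21, 15 and 2 in KO2, EP10, EP11 and EP12, against 0, 1, 2 and 0 in EP07, EP08, EP09 and WT3. It had too few counts for the test, and EP12 and EP09 had the same count. In keratinocytes, which were counted by strand, it averaged 2.78 ± 0.91 CPM in p63beta and 1.55 ± 0.38 CPM in p63alpha (SD, n = 3 each), with an edgeR adjusted p of 0.729.

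The most abundant of the 10 genes in epidermis per length of transcript was Il18, at 193 ± 46.6 TPM in p63beta and 208 ± 41.8 TPM in p63alpha (SD, n = 4 each). Il1rn came next at 93.5 ± 24.9 TPM in p63beta and 112 ± 24.3 TPM in p63alpha, and after it Il1a at 31.1 ± 14.8 TPM in p63beta and 32.9 ± 19.7 TPM in p63alpha. Ptgs2 held the fourth place in p63beta at 19.9 ± 11.2 TPM, a mean within 1 SD of that of Il1a, and the seventh place in p63alpha at 1.24 ± 0.75 TPM. In p63alpha, Ccl20, Il33 and Il1b lay above Ptgs2 with means of 2.88, 1.97 and 1.61 TPM, and their SDs overlapped its own. The other 6 genes averaged at most 5.65 TPM in p63beta and the least abundant, Il24, 0.988 TPM in p63beta and 0.0922 TPM in p63alpha.

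Among the interleukin-1 genes of epidermis, Il1a (Entrez 16175), the alarm cytokine that is active without processing, measured 20.4, 56.0, 35.7 and 31.8 CPM in KO2, EP10, EP11 and EP12, against 40.5, 60.3, 21.5 and 19.6 CPM in EP07, EP08, EP09 and WT3. The ranges were nearly the same, and the log2 fold change was 0.02 ± 0.39 (edgeR adjusted p 0.9999). Il1rn (Entrez 16181), which encodes the receptor antagonist, measured 112, 159, 165 and 121 CPM in KO2, EP10, EP11 and EP12, against 192, 165, 103 and 174 CPM in EP07, EP08, EP09 and WT3. Its log2 fold change was -0.19 ± 0.21 (adjusted p 0.9999), with the lowest library in p63alpha. Il18 (Entrez 16173), a cytokine stored as a precursor, measured 78.4, 78.3, 80.3 and 113 CPM in KO2, EP10, EP11 and EP12, against 78.7, 95.6, 63.7 and 124 CPM in EP07, EP08, EP09 and WT3. KO2, EP10 and EP11 lay close together while EP12 stood above them, and the log2 fold change was -0.05 ± 0.22 (adjusted p 0.9999).

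Il1b (Entrez 16176), whose precursor is cut by caspase-1, measured 4.74, 1.51, 2.77 and 2.77 CPM in KO2, EP10, EP11 and EP12, against 0.559, 0.804, 0.633 and 2.91 CPM in EP07, EP08, EP09 and WT3. Among the EP-numbered libraries each p63beta value was above each p63alpha value, and WT3 lay above 3 of the p63beta libraries. The log2 fold change was 1.26 ± 0.59 (edgeR adjusted p 0.9999) with all libraries and 2.14 without WT3 (adjusted p 0.209). Il33 (Entrez 77125), a nuclear cytokine released by damaged cells, measured 5.86, 13.5, 14.7 and 0.606 CPM in KO2, EP10, EP11 and EP12, against 2.47, 5.53, 2.07 and 0.902 CPM in EP07, EP08, EP09 and WT3. KO2, EP10 and EP11 were above every p63alpha library and EP12 was below them all. The log2 fold change was 1.66 ± 0.81 (adjusted p 0.9999), and 2.04 without EP12 (adjusted p 0.290).

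The neutrophil chemokine gene Cxcl1 (Entrez 14825) measured 6.56, 0.936, 1.08 and 0.303 CPM in KO2, EP10, EP11 and EP12, against 0.382, 0.450, 0.422 and 0.201 CPM in EP07, EP08, EP09 and WT3. KO2 stood far above all others, and EP12 lay within the p63alpha range. The log2 fold change was 2.61 ± 0.85 (edgeR adjusted p 0.677) with all libraries and 1.09 without KO2 (adjusted p 1.0), so that 1 library sets most of its size. Ccl20 (Entrez 20297), a chemokine that draws cells with the receptor CCR6, measured 0.224, 2.40, 1.78 and 0.606 CPM in KO2, EP10, EP11 and EP12, against 2.65, 0.868, 0.338 and 0.668 CPM in EP07, EP08, EP09 and WT3. The groups overlapped over nearly their whole range, and the log2 fold change was 0.13 ± 0.78 (adjusted p 0.9999).

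Tslp and Il24 were near the limit of detection in epidermis and were not tested. Tslp (Entrez 53603), a cytokine that acts on dendritic cells and other immune cells, had 24, 47, 13 and 1 counts in KO2, EP10, EP11 and EP12, against 6, 8, 1 and 2 counts in EP07, EP08, EP09 and WT3. Il24 (Entrez 93672), a member of the interleukin-10 family, had 32, 11, 39 and 0 counts in KO2, EP10, EP11 and EP12, against 3, 1, 2 and 0 counts in EP07, EP08, EP09 and WT3. For both genes KO2, EP10 and EP11 were above all p63alpha libraries and EP12 was among the lowest. EP12 had the lowest p63beta level of 5 of the 10 genes, Il33, Tslp, Cxcl1, Il24 and Ptgs2, and the highest of Il18.

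In cultured keratinocytes none of the 10 genes passed. Ptgs2 was the most abundant of them and measured 1.31-fold higher in p63beta, Cxcl1 measured 2.37-fold higher, and for both all p63beta libraries were above all p63alpha libraries. Il33 measured 0.591 times the p63alpha level, with all p63beta libraries below all p63alpha libraries. The edgeR test called 14 of 13820 genes, or 0.101%, and 37 genes with the replicate number as a block, under which still none of the 10 passed. Of the 10 genes, 5 had an unadjusted p under 0.05, as did 947 of all genes tested, or 6.85%. DESeq2 called 1 of the 10 (Cxcl1) and 223 of all genes, or 1.63%, and limma on log2 FPKM called none of the 10 and 11 of all genes, or 0.0796%. The p63beta libraries were all higher for 6.51% of all genes tested and all lower for 5.8%, against 2 and 1 of the 10 genes.

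**Figure D3:**
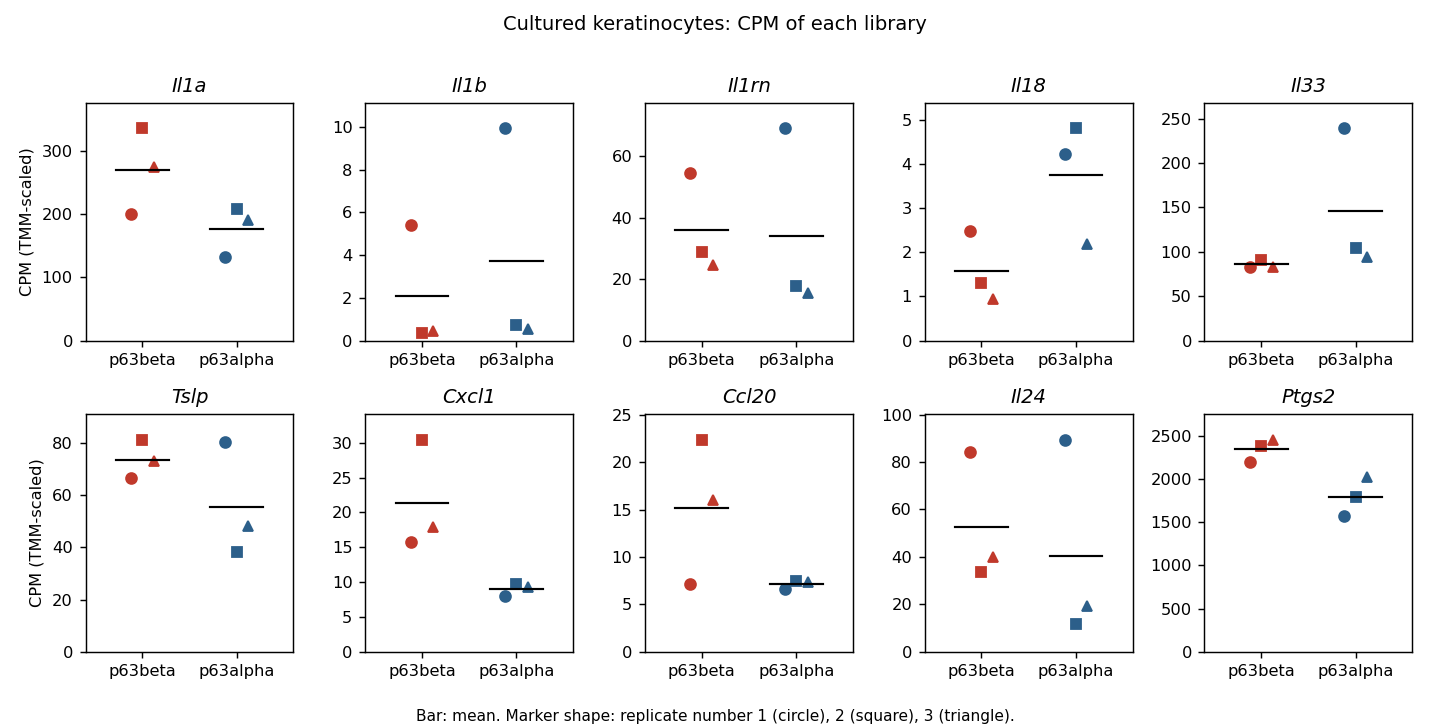
CPM in cultured keratinocytes (y axis, TMM-scaled, starting at 0, a scale per panel) of each of the 10 genes, p63beta libraries in red and p63alpha libraries in blue, with the replicate number as the marker shape and the mean as a bar. Replicate 1 is the highest library of both genotypes for Il1b, Il1rn and Il24, and the groups do not overlap for Il33, Cxcl1 and Ptgs2.

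Ptgs2 measured 2191, 2383 and 2456 CPM in p63beta replicates 1, 2 and 3, against 1573, 1787 and 2018 CPM in p63alpha replicates 1, 2 and 3. The ratio was above 1 in each of the 3 pairs with the same replicate number, and the gap between the groups was smaller than the spread within p63alpha. The means were 2343 ± 137 CPM in p63beta and 1793 ± 223 CPM in p63alpha (SD, n = 3 each), which is 0.39 ± 0.12 as a log2 fold change (edgeR adjusted p 0.596, unadjusted p 0.0201). Over the alternatives the log2 fold change ran from 0.28 to 0.48 and the adjusted p from 0.0871 to 0.9993.

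Per length of transcript, Ptgs2 averaged 563 ± 19.3 FPKM (fragments scaled by transcript length and library total) in p63beta and 433 ± 60.4 FPKM in p63alpha cultures, the highest of the 10 genes. Il1a came next with 136 ± 32.3 FPKM in p63beta and 89.9 ± 20.9 FPKM in p63alpha (SD, n = 3 each). Tslp, Il24 and Il33 followed in p63beta, with means of 55.0, 47.4 and 33.0 FPKM, and in p63alpha Il33, Tslp and Il24 followed with 55.7, 41.6 and 35.8 FPKM, means that in p63alpha lay within 1 SD of one another. Cxcl1 and Ccl20 averaged 22.3 and 18.8 FPKM in p63beta and 9.47 and 8.93 FPKM in p63alpha. Il18 and Il1b were the lowest, with 1.83 and 1.59 FPKM in p63beta and 4.32 and 2.77 FPKM in p63alpha.

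The chemokine gene Cxcl1 measured 15.7, 30.5 and 17.9 CPM in p63beta replicates 1, 2 and 3, against 8.02, 9.79 and 9.28 CPM in p63alpha replicates 1, 2 and 3. The p63alpha libraries lay close together and below every p63beta library. This is a log2 fold change of 1.24 ± 0.27 (edgeR adjusted p 0.360, unadjusted p 0.00332). DESeq2 gave 1.23 with an adjusted p of 0.00495, and the authors' deposited table, which lists shrunken DESeq2 fold changes, gave 0.80 with an adjusted p of 0.00625. Ccl20 measured 7.14, 22.4 and 16.0 CPM in p63beta replicates 1, 2 and 3, against 6.65, 7.44 and 7.38 CPM in p63alpha replicates 1, 2 and 3. Replicates 2 and 3 of p63beta were above p63alpha and replicate 1 was within its range, with a log2 fold change of 1.08 ± 0.39 (adjusted p 0.662).

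Il1a measured 200.0, 335 and 273 CPM in p63beta replicates 1, 2 and 3, against 133, 208 and 190 CPM in p63alpha replicates 1, 2 and 3. The groups overlapped, since p63beta replicate 1 lay below p63alpha replicate 2, yet within each replicate number p63beta was higher by 0.59, 0.69 and 0.52 on the log2 scale. The log2 fold change was 0.61 ± 0.24 (edgeR adjusted p 0.703), and 0.60 ± 0.07 with the replicate block (adjusted p 0.0695). Il18 measured 2.48, 1.31 and 0.946 CPM in p63beta replicates 1, 2 and 3, against 4.24, 4.81 and 2.19 CPM in p63alpha replicates 1, 2 and 3. It was lower in p63beta within each replicate number, and the groups overlapped by p63beta replicate 1, with a log2 fold change of -1.25 ± 0.48 (adjusted p 0.699).

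Several of the genes were high in replicate 1 of both genotypes. Il1b measured 5.41, 0.357 and 0.455 CPM in p63beta replicates 1, 2 and 3, against 9.94, 0.730 and 0.523 CPM in p63alpha replicates 1, 2 and 3. Il1rn measured 54.5, 28.7 and 24.7 CPM in p63beta replicates 1, 2 and 3, against 69.1, 17.7 and 15.5 CPM in p63alpha replicates 1, 2 and 3. Il24 measured 84.2, 33.6 and 39.9 CPM in p63beta replicates 1, 2 and 3, against 89.5, 11.8 and 19.5 CPM in p63alpha replicates 1, 2 and 3. The differences between replicates were larger than those between genotypes, with log2 fold changes of -0.84 ± 1.48 for Il1b, 0.08 ± 0.64 for Il1rn and 0.39 ± 0.79 for Il24 (edgeR adjusted p 0.973, 0.997 and 0.973). Within replicates 1, 2 and 3, Il1b differed by -0.87, -0.90 and -0.17 on the log2 scale, lower in p63beta each time, and the replicate block gave -0.73 ± 0.28 (adjusted p 0.386). Within replicates 2 and 3, p63beta was higher by 0.70 and 0.67 for Il1rn and by 1.51 and 1.03 for Il24 on the log2 scale, and within replicate 1 the differences were -0.34 for Il1rn and -0.09 for Il24.

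Il33 measured 83.4, 91.3 and 83.4 CPM in p63beta replicates 1, 2 and 3, against 239, 104 and 93.6 CPM in p63alpha replicates 1, 2 and 3. The p63beta libraries lay just below p63alpha replicates 2 and 3, and p63alpha replicate 1 stood far above all others. The log2 fold change was -0.76 ± 0.36 (edgeR adjusted p 0.764) with all libraries and -0.22 without p63alpha replicate 1 (adjusted p 0.322). Tslp measured 66.5, 81.2 and 72.8 CPM in p63beta replicates 1, 2 and 3, against 80.2, 38.2 and 48.3 CPM in p63alpha replicates 1, 2 and 3. Here too p63alpha replicate 1 was the highest of its group, and the log2 fold change was 0.40 ± 0.27 (adjusted p 0.881), or 0.75 without that library (adjusted p 0.156).

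Myeloid markers moved with replicate 1. The 12 myeloid and Langerhans cell markers summed to 112 CPM in p63beta replicate 1 and to at most 40.4 CPM in p63beta replicates 2 and 3, against 138 CPM in p63alpha replicate 1 and at most 40.5 CPM in p63alpha replicates 2 and 3. The 7 neutrophil markers, of which Ly6g and Retnlg were at 0 in every library, summed to 0.198 to 4.67 CPM in p63beta and 0.952 to 9.35 CPM in p63alpha, also highest in replicate 1 of each. The 7 T cell markers summed to 21.9 to 28.9 CPM in p63beta and 29.0 to 44.5 CPM in p63alpha, so that the groups nearly touched. The 6 endothelium markers summed to 16.9 to 44.3 CPM in p63beta and 9.89 to 14.4 CPM in p63alpha, also with no overlap between genotypes. Of all genes tested, 6.51% had all p63beta libraries higher and 5.8% all lower. Enough counts for a test were found for 10 of the myeloid, 1 of the neutrophil, 2 of the T cell and 4 of the endothelium markers. None of these was called, and the part of such cells in the values of the 10 genes was not tested.

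Set side by side, the genotype difference of Ptgs2 was 4.15 on the log2 scale in epidermis and 0.39 in keratinocytes. When all 14 libraries were fitted together with edgeR, the interaction of genotype and kind of sample put the difference of the effects at 3.79 ± 0.72 (SE), with an unadjusted p of 1.47e-04 and an adjusted p of 0.433, so it did not pass. No gene passed that test, 0.0% of 14728, while 620 genes had an unadjusted p under 0.05. Of the other 9 genes, the unadjusted p for a difference of effects was under 0.05 for Il18 (1.23 ± 0.47), Il33 (2.43 ± 1.01) and Il24 (3.21 ± 1.44), each with an adjusted p of 1.0. Il24 had too few epidermis counts for a test there, with 3, 1, 2 and 0 in EP07, EP08, EP09 and WT3. Its value in the joint fit rests on those same counts. Cultured cells and epidermis were quantified with different tools, so no level was compared between them.

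**Figure D4:**
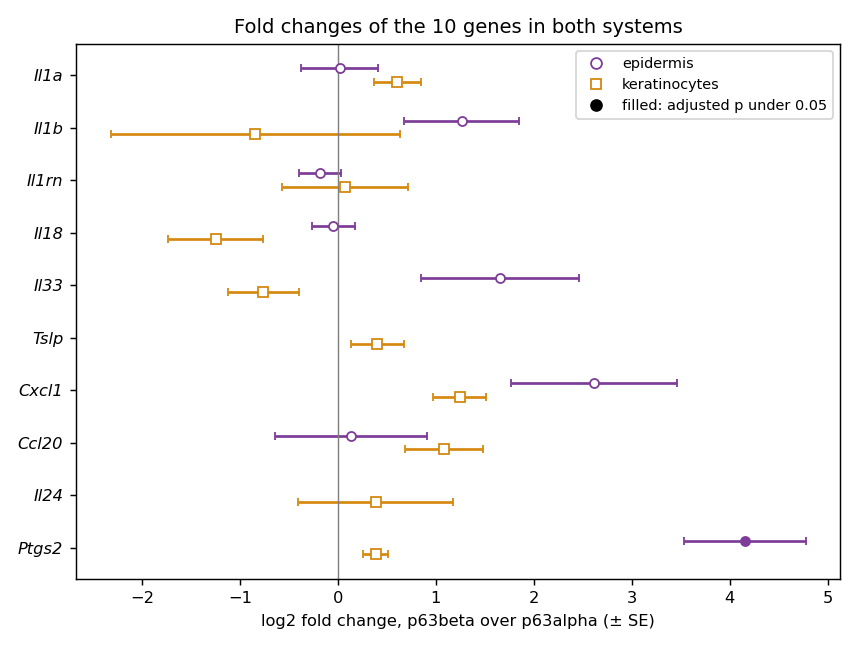
Log2 fold changes of p63beta over p63alpha (x axis) with SE bars for the 10 genes, epidermis as circles and keratinocytes as squares, filled where the adjusted p is under 0.05. Ptgs2 in epidermis, at 4.15 ± 0.62, is the filled point, and Tslp and Il24 have no epidermis point because they were not tested.

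Over the 10 genes the median log2 fold change was 0.70 in epidermis (8 tested, 6 positive) and 0.39 in keratinocytes (10 tested, 7 positive), beside -0.0039 over all genes in epidermis and -0.0013 over all genes in keratinocytes. Chromosome 2 holds Il1a, Il1b and Il1rn, and chromosome 1 holds Ptgs2, Il24 and Ccl20, while the other 4 lie on chromosomes 5, 9, 18 and 19. Il1a and Il1b lie near each other, starting at chr2:129299610 and chr2:129364579, and Il1rn lies far from them, starting at chr2:24336860. Per length, Il1rn and Il1a were above Il1b in the means of both kinds of sample.

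The other genes of prostanoid metabolism did not change with Ptgs2 to the point of passing. Of 13 enzymes and transporters, 11 were tested in each kind of sample and edgeR called none, with 1 unadjusted p under 0.05 in epidermis and 0 in keratinocytes, while DESeq2 called Ptgds in epidermis. Over all genes, the unadjusted p was under 0.05 for 4.64% in epidermis and 6.85% in keratinocytes, and DESeq2 called 1.03% in epidermis. Of the 11, 8 had positive fold changes in each kind of sample, with medians of 0.16 in epidermis and 0.14 in keratinocytes. Ptgds, which encodes a prostaglandin D2 synthase, measured 33.3, 21.3, 21.7 and 17.6 CPM in KO2, EP10, EP11 and EP12, against 8.17, 10.6, 13.1 and 7.55 CPM in EP07, EP08, EP09 and WT3. Its groups did not overlap, and the log2 fold change was 1.26 ± 0.26 with an edgeR adjusted p of 0.136 and a DESeq2 adjusted p of 0.00104. Pla2g4a, the phospholipase gene whose product frees arachidonic acid, averaged 90.4 ± 29.8 CPM in p63beta and 58.7 ± 20.2 CPM in p63alpha epidermis (SD, n = 4 each), and Ptgs1, the constitutive cyclooxygenase gene, averaged 157 ± 24.9 CPM in p63beta and 176 ± 61.1 CPM in p63alpha. Ptges, the prostaglandin E synthase gene, averaged 144 ± 95.2 CPM in p63beta and 109 ± 38.5 CPM in p63alpha epidermis, with overlapping libraries, and 211 ± 35.9 CPM in p63beta and 155 ± 52.3 CPM in p63alpha cultures.

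**Figure D5:**
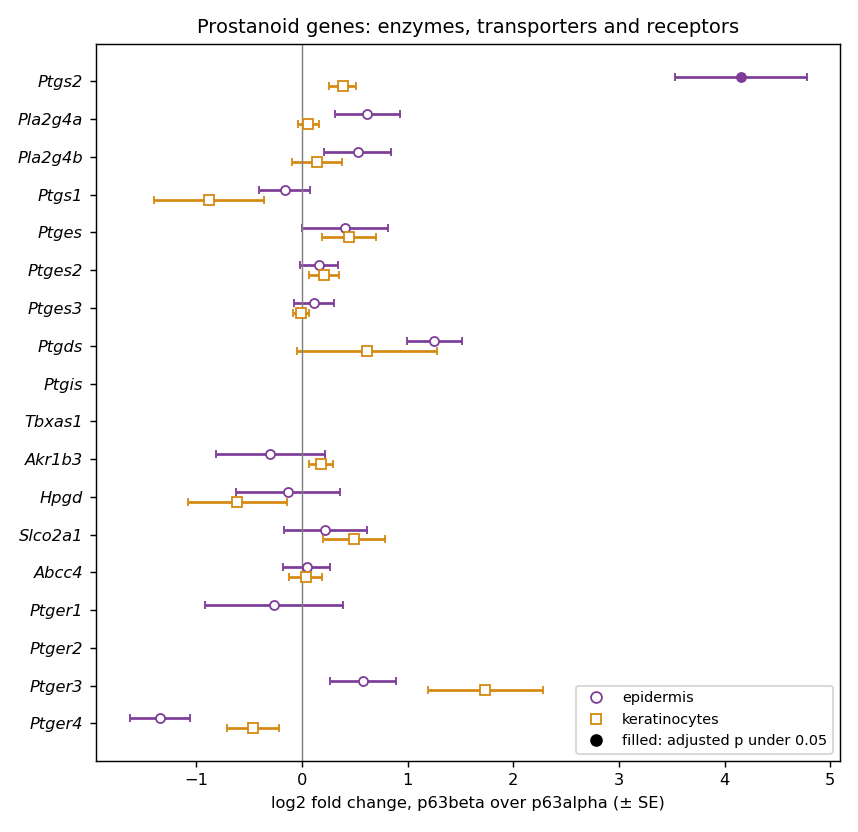
Log2 fold changes of p63beta over p63alpha (x axis) with SE bars for Ptgs2 and the other prostanoid genes, epidermis as circles and keratinocytes as squares, filled where the adjusted p is under 0.05, with no point for a gene that was not tested. Ptgs2 in epidermis is the filled point, Ptgds lies at 1.26 ± 0.26 and Ptger4 at -1.34 ± 0.29 in epidermis.

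Of 16 receptor genes for products of the 10 genes, 13 were tested in epidermis and 11 in keratinocytes, and edgeR called none, with 2 unadjusted p-values under 0.05 in epidermis and 1 in keratinocytes, while DESeq2 called Ptger4 in epidermis. The unadjusted p was under 0.05 for 4.64% of all genes in epidermis and 6.85% in keratinocytes, and DESeq2 called 1.03% in epidermis. The 2 in epidermis were Ptger4 and Il20rb, both lower in p63beta, and the 1 in keratinocytes was Ptger3, which was higher. Ptger4, which encodes the EP4 receptor of prostaglandin E2, measured 1.75, 1.63, 1.78 and 1.47 CPM in KO2, EP10, EP11 and EP12, against 4.73, 4.76, 4.39 and 2.97 CPM in EP07, EP08, EP09 and WT3. Every p63beta library was below every p63alpha library, and the log2 fold change was -1.34 ± 0.29 with an edgeR adjusted p of 0.161 and a DESeq2 adjusted p of 5.08e-04. Ptger3, the EP3 receptor gene, averaged 10.1 ± 2.44 CPM in p63beta and 6.75 ± 2.71 CPM in p63alpha epidermis (adjusted p 0.9999). In cultures Ptger3 was low, at 0.696 ± 0.180 CPM in p63beta and 0.202 ± 0.125 CPM in p63alpha, with no overlap (edgeR unadjusted p 0.0179, adjusted p 0.577). The interleukin-1 receptor gene Il1r1 averaged 26.2 ± 6.94 CPM in p63beta and 32.6 ± 12.2 CPM in p63alpha epidermis, and 134 ± 55.0 CPM in p63beta and 103 ± 27.2 CPM in p63alpha cultures. Cxcr2, the receptor gene for Cxcl1, averaged 1.08 ± 0.77 CPM in p63beta and 0.648 ± 0.488 CPM in p63alpha epidermis.

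The 8 other interleukin-1 family and binding protein genes were all tested, and neither edgeR nor DESeq2 or limma called any in either kind of sample, nor was any unadjusted edgeR p under 0.05, with medians of 0.17 in epidermis and 0.35 in keratinocytes. Of the interleukin-36 genes, Il1f9 (interleukin-36 gamma) averaged 115 ± 36.9 CPM in p63beta and 92.4 ± 16.4 CPM in p63alpha epidermis, and Il1f6 (interleukin-36 alpha) averaged 6.56 ± 1.14 CPM in p63beta and 2.77 ± 2.73 CPM in p63alpha cultures (edgeR adjusted p 0.9999 and 0.819). Of 15 genes for processing and release of these cytokines, 11 were tested in epidermis and 10 in keratinocytes, and edgeR, DESeq2 and limma called none, with 1 unadjusted edgeR p under 0.05 in each. Such a p was found for 4.64% of all genes in epidermis and 6.85% in keratinocytes. Pycard, the adaptor gene of inflammasomes, measured 59.6, 38.5 and 38.1 CPM in p63beta cultures and 37.5, 19.5 and 18.9 CPM in p63alpha cultures, in the order of the replicates (log2 fold change 0.84 ± 0.33, adjusted p 0.699). Casp1, the gene of the caspase that cuts the Il1b and Il18 precursors, averaged 6.32 ± 3.13 CPM in p63beta and 10.9 ± 4.795 CPM in p63alpha epidermis (adjusted p 0.9999).

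Of 24 other epidermal cytokine and chemokine genes, 13 were tested in epidermis and 19 in keratinocytes, and edgeR, DESeq2 and limma called none, with 1 unadjusted edgeR p under 0.05 in epidermis and 0 in keratinocytes and medians of 0.03 in epidermis and -0.05 in keratinocytes. An unadjusted p under 0.05 was found for 4.64% of all genes in epidermis and 6.85% in keratinocytes. Csf1, the macrophage growth factor gene, had fold changes of opposite sign, with means of 10.6 ± 5.01 CPM in p63beta and 18.4 ± 5.07 CPM in p63alpha epidermis, and of 171 ± 36.8 CPM in p63beta and 99.3 ± 57.9 CPM in p63alpha cultures, and neither passed. The neutrophil-recruiting chemokine gene Cxcl2 averaged 1.32 ± 1.34 CPM in p63beta and 0.253 ± 0.266 CPM in p63alpha epidermis. S100a9, a calprotectin subunit gene of stressed epidermis and of neutrophils, measured 17.5, 17.3, 33.0 and 0.346 CPM in KO2, EP10, EP11 and EP12, against 7.06, 3.89, 2.45 and 0.401 CPM in EP07, EP08, EP09 and WT3. As for Il33, KO2, EP10 and EP11 lay above all p63alpha libraries and EP12 below them.

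Of 23 genes linked to NF-kB or AP-1, all were tested and none was called by edgeR, with 19 positive fold changes and a median of 0.34 in epidermis and 15 positive and a median of 0.17 in keratinocytes. The list mixes genes of these pathways, such as the AP-1 subunit genes Fos and Jun, with genes that respond to them. Its signs therefore do not measure the activity of NF-kB or AP-1. In epidermis 3 and in keratinocytes 5 had an unadjusted p under 0.05, which 4.64% of all genes had in epidermis and 6.85% in keratinocytes. Of the 5 in keratinocytes, Jun was lower in p63beta, with overlapping libraries (log2 fold change -0.47 ± 0.16, edgeR adjusted p 0.628), and the others were higher. DESeq2 called 3 of the 23 in keratinocytes, against 1.63% of all genes, and none in epidermis, against 1.03%. In the cultures, 5 of the 23 had all p63beta libraries above all p63alpha libraries, which 6.51% of all genes did. Zc3h12a, whose product degrades cytokine mRNAs, measured 44.0, 56.0 and 46.4 CPM in p63beta and 29.6, 26.4 and 29.0 CPM in p63alpha cultures (log2 fold change 0.78 ± 0.12, edgeR adjusted p 0.153, DESeq2 adjusted p 1.46e-05). Fosl1, an AP-1 subunit gene, averaged 92.2 ± 9.38 CPM in p63beta and 62.8 ± 6.87 CPM in p63alpha cultures, and Nfkbia, the gene of the NF-kB inhibitor IkB alpha, averaged 223 ± 30.5 CPM in p63beta and 149 ± 20.3 CPM in p63alpha (edgeR adjusted p 0.348 and 0.447, DESeq2 adjusted p 0.00595 and 0.0201). In epidermis, Zfp36, whose product destabilises cytokine mRNAs, averaged 457 ± 146 CPM in p63beta and 239 ± 120 CPM in p63alpha, with overlapping libraries (edgeR adjusted p 0.895).

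Shares of transcripts were compared in epidermis for 4 of the 10 genes, those with at least 2 annotated transcripts and a mean of at least 1 TPM in a genotype. The Il1rn transcript that starts furthest upstream carried 98.4% ± 1.69 of the Il1rn TPM in p63beta and 98.7% ± 1.38 in p63alpha (SD, n = 4 each, exact permutation p 0.743, adjusted 1.0), and the other two annotated starts lie 8435 and 8457 bases downstream. The use of starts was thus nearly the same in all 8 libraries, with 96.5% as the lowest share. For Il33, Tslp and Ccl20 the share of the main transcript ranged up to 100% and down to 0% in at least 1 genotype, and no difference in share passed (adjusted exact permutation p 1.0). Shares that vary this much between libraries do not tell the transcripts of these genes apart.

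The authors' deposited table for epidermis, made with DESeq2, gave Ptgs2 a log2 fold change of 4.17 with an adjusted p of 3.02e-09. In the same authors' deposited table Tslp had 2.43, Cxcl1 2.64 and Il24 3.63, with adjusted p-values of 0.549, 0.146 and 0.257. The authors' deposited table for keratinocytes holds log2 fold changes that DESeq2 had shrunken toward 0, and gave Ptgs2 0.34 with an adjusted p of 0.117. For Il18 and Ccl20 the same authors' deposited table gave shrunken values of -0.47 and 0.53, with adjusted p-values of 0.415 and 0.306. DESeq2 without shrinkage, run on the deposited counts, gave -1.26 for Il18 and 1.08 for Ccl20, close to the edgeR values.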

How the data were processed

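RNA was measured in 3 p63beta and 3 p63alpha keratinocyte libraries and in 4 p63beta and 4 p63alpha epidermis libraries. The keratinocyte values deposited by the authors are raw counts per RefSeq gene, made with featureCounts 1.5.2 at strand setting 2 and a minimum overlap of 25 bases, per the file headers, and FPKM of the same libraries. For epidermis the authors deposited expected counts and TPM per gene and per transcript, from salmon per the submitters' processing notes, which also name STAR and the build mm10. DESeq2 tables deposited by the authors hold log2 fold changes, shrunken in the keratinocyte table per its column name, with adjusted p-values. The versions of these tools are not given in the sources used here. In the DESeq2 tables, 14 per-library columns were left aside. Epidermis columns carry WT or KO, read as p63alpha and p63beta, and do not say which labelled replicate they hold.

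Expected counts were rounded to whole numbers. Keratinocytes and epidermis were fitted separately in edgeR 4.0.16 under R 4.3.3 (TMM, filterByExpr, robust quasi-likelihood F test, Benjamini-Hochberg adjustment over all genes tested). The SE is the absolute log2 fold change divided by the square root of F. CPM were scaled by TMM. The difference of effects was an interaction term over the 14728 genes of both tables that passed the filter. Transcript shares were compared by two-sided exact permutation over 70 splits, with scipy 1.17.1. Trp63 endings were read from the effective length of each transcript. The fits were also run on simulated counts with known changes. Those counts had a single fixed spread and no column code, outlier library or replicate structure, so they do not cover the spread of these libraries. Alternatives were RLE size factors, no filter, DESeq2 1.42.0, no robust estimation, limma 3.58.1 on log2 values with a pseudocount of 1 or 0.1, leaving out each library, the replicate block, a term for the column code and the EP-numbered libraries alone.

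In keratinocytes, deviations from the group means of libraries with the same replicate number in their titles correlated at 0.600, 0.503 and 0.204 over 12509 genes, against -0.515 to 0.192 for different numbers. Replicate 3, at 0.204, was close to the 0.192 and 0.171 of replicates 2 and 3 crossed, so its pairing is not shown. The numbers were used as a pairing in the replicate block and the differences within replicates, and the calls rest on the fit without them.

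The 10 genes, the 6 other gene lists and the marker lists were chosen with earlier results of these data known. The rule for naming genes took the 10 genes, called genes of the lists, up to 3 genes per list and kind of sample with the lowest p among those of at least 1 CPM, and the 5 genes most like a called gene, and the text names most of these. Ptgs2os, Il1r1 and Cxcr2, Ptges and Ptgs1 in epidermis, and Jun and Ptger3 in keratinocytes lie outside it and were added after their values were seen.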

Additional observations from a re-analysis of the deposited data

Results flagged for a closer look

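In 20 groups of 4 epidermis libraries, each of the 10 genes in each genotype, the highest and lowest library was compared with the others by Dixon's criterion, which by chance marks about 1 group in 20. It marked 3 groups. Cxcl1 was at 6.56 CPM in the p63beta library KO2, far above the other 3 p63beta libraries. Il18 was at 113 CPM in the p63beta library EP12, above the other 3. Il1b was at 2.91 CPM in the p63alpha library WT3, above the other 3 p63alpha libraries. No cause was tested.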

How the results depend on the processing

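Of the alternatives, DESeq2 moved the counts of calls most, to 223 genes in keratinocytes, 1 of the 10 genes (Cxcl1) among them, and to 141 genes in epidermis. The replicate block gave 37 genes in keratinocytes, changed no call of the 10 genes, and gave a Ptgs2 log2 fold change of 0.39 there. With the EP-numbered libraries alone, 8 genes and 0 of the 10 were called in epidermis, with Ptgs2 at 3.81 and Il18 at 0.19. Without the filter on low counts, 0 of the 10 were called in epidermis, with Ptgs2 at 4.15 (edgeR adjusted p 0.0712). Leaving out each library gave 1 to 4 called genes in keratinocytes and 10 to 28 in epidermis, 0 to 1 of the 10 genes in epidermis, and Ptgs2 log2 fold changes of 3.83 to 4.45 there, whose adjusted p under 0.05 was kept without WT3 or EP12 and lost without any other library. The cause of these shifts was not tested.

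Signs turned among values that did not pass. Leaving out each library, the log2 fold change in keratinocytes ran from -3.18 to 1.68 for Il1b, from -0.35 to 1.09 for Il1rn and from -0.13 to 1.73 for Il24. In epidermis it ran from -0.28 to 0.40 for Il1a, from -0.20 to 0.14 for Il18 and from -0.39 to 0.98 for Ccl20. The difference of effects ran from -0.43 to 4.45 for Il1b, from -1.28 to 0.18 for Il1rn and from -0.14 to 1.77 for Cxcl1. With limma on log2 TPM, Il1a in epidermis was -0.018 at a pseudocount of 1 and -0.017 at 0.1, and Ccl20 was -0.026 at 0.1. With a term for the column code Ccl20 was -0.098. Of 1005 alternative log2 fold changes, 954 kept direction and side of the threshold, and of 97 alternative counts of calls, 73 lay within 1.5 times the reported count. Depth limits Tslp and Il24 in epidermis, which had 0 to 8 estimated counts in each p63alpha library.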
